A study of Homo sapiens with 13 samples.

Results

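Translation factors are the proteins that start, carry on and end protein synthesis on the ribosome. Peaks of S9.6 signal were examined at 41 of their genes, out of 19974 protein-coding RefSeq genes on chromosomes 1 to 22 and X. The 41 genes are a given list of initiation, elongation and release factors and close partners, grouped by function, and the list was drawn up with earlier results of these data known. DNA-RNA immunoprecipitation sequencing (DRIP-seq) was done in U2OS cells, a human osteosarcoma line, and the series asks whether REXO4 and RNaseH1 act on R-loops in shared regions. One group received siRNA against REXO4 (siREXO4), a member of a family of predicted exonucleases. Another received siRNA against RNaseH1 (siRNaseH1), the nuclease that cuts the RNA of DNA-RNA hybrids. The third received a control siRNA (siCtrl). All groups are the same unedited line, and each has 3 IP libraries made with S9.6, an antibody that binds DNA-RNA hybrids. The authors merged the 3 libraries of a group and deposited 1 peak list per group, so no value below has a replicate error and no test between groups was possible. The deposited lists give neither transcript nor protein levels, so neither the knockdowns nor the cell type could be checked with them.

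In translation initiation, eIF2 brings the initiator tRNA to the small ribosomal subunit, eIF3 holds the assembly together, and the eIF4 factors bring in the capped mRNA. eEF1A and eEF2 then drive each elongation cycle, and eRF1 with eRF3 releases the finished chain at a stop codon. Most of these factors are abundant, and their genes are transcribed in nearly every growing cell. An R-loop is a DNA-RNA hybrid with the other DNA strand displaced, and it is best known from transcribed genes, near their starts and ends.

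On the chromosomes analysed, the lists held 12687 peaks for siREXO4, 20954 for siRNaseH1 and 4458 for siCtrl. A gene was counted when a peak overlapped its hg38 RefSeq span, or the 2 kb on either side, by at least 1 bp. A knockdown peak is called gained when no siCtrl peak overlaps it by at least 1 bp. The authors' fold enrichment of a peak, its value at the summit over local background, is given within its own list only, and a percentile is the percent of that list at or under it. The fold and p-value of a peak together give the number of fragments at its summit, and the weakest peak of each list had 7. The lowest background was 1.41 fragments for siREXO4, 1.36 for siRNaseH1 and 1.28 for siCtrl. Peaks at the translation factor genes had 9 to 111 fragments in siREXO4 (median 16), 9 to 198 in siRNaseH1 (median 21) and 8 to 33 in siCtrl (median 15.5). In a culture, hybrids in more cells and more hybrids per cell cannot be told apart.

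Most translation factor genes held S9.6 peaks after either knockdown. A siREXO4 peak lay at 33 of the 41 genes (80.5%, 95% Wilson interval 66 to 89.8%), and 33.7% of all protein-coding genes held one. A siRNaseH1 peak lay at 36 (87.8%, 74.5 to 94.7%), with 39.2% over all protein-coding genes. A siCtrl peak lay at 18 (43.9%, 29.9 to 59.0%), with 12% over all. At a fold of at least 5 the siCtrl count was 11 genes (5.67% of all). The share at translation factor genes was thus above that of all protein-coding genes in the siCtrl list as well as in the knockdown lists. The intervals cover counting error only and not variation between cultures.

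Gained peaks lay at 30 of the genes in siREXO4 (73.2%; 31.3% of all protein-coding genes) and at 36 in siRNaseH1 (87.8%; 37.6% of all). Both counts are read against the same siCtrl list. A siREXO4 gained peak overlapped by a siRNaseH1 gained peak was found at 26 genes (63.4%; 20.8% of all). It was found at 17 genes when only peaks with a fold of at least 5 were used (13.1% of all) and at 11 when each list was cut to equal length, its 4458 strongest peaks by p-value (8.98% of all). At equal length, 18 genes held a siREXO4 gained peak (15.6% of all). A peak in all 3 lists, not always at the same place, was found at 17 genes (41.5%; 8.59% of all). The genes with no peak in any list were EIF2S1, EIF2B2 and EIF4EBP1, or 7.32%, while 53.3% of all protein-coding genes held none.

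The median length was 22.4 kb for the 41 genes and 24.2 kb over all protein-coding genes. Of the 26 translation factor genes of 10 to 50 kb, 22 held a siREXO4 peak (background 34.8%), 23 a siRNaseH1 peak (41.7%) and 11 a siCtrl peak (10.6%). Of the 10 genes under 10 kb, 7 held a siREXO4 peak (22.8%), 9 a siRNaseH1 peak (24.6%) and 4 a siCtrl peak (5.89%). Of the 5 genes over 50 kb, 4 held a siREXO4 peak (42.2%), 4 a siRNaseH1 peak (49%) and 3 a siCtrl peak (19.2%). In each list the share was above that of protein-coding genes of the class for genes under 10 kb and for those of 10 to 50 kb. It was also the higher for genes over 50 kb, but 5 genes are too few to be placed above or below a share. The siRNaseH1 list is the longest, so any peak was also counted at equal list length. Then 24 genes held a siREXO4 peak (18.6% of all protein-coding genes), 26 a siRNaseH1 peak (16.9%) and 18 a siCtrl peak (12%). The levels of these transcripts were not measured in the files used, and their part in the counts was not tested.

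**Figure D1:**
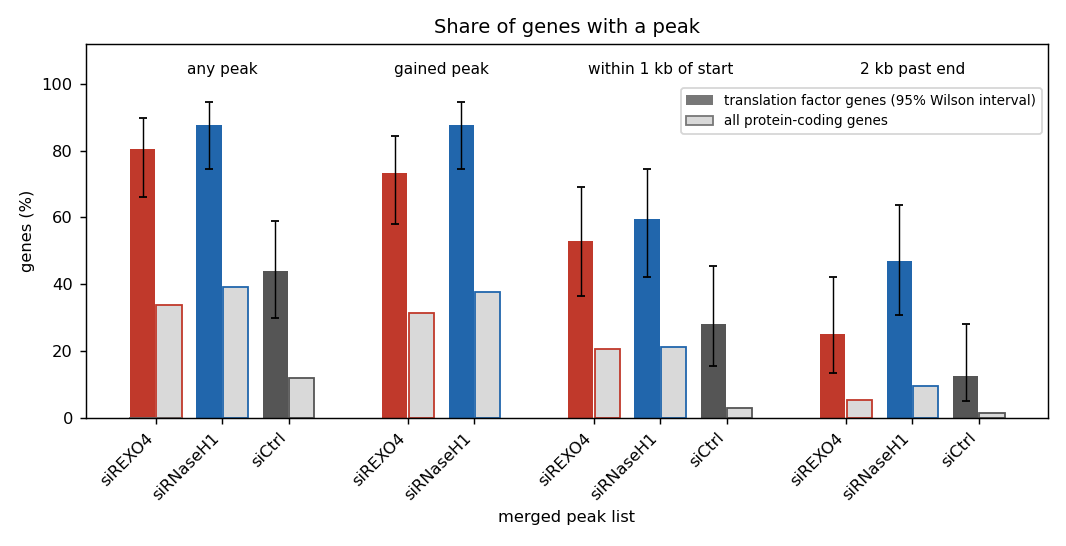
Percent of genes with a peak (y axis) in the siREXO4, siRNaseH1 and siCtrl lists (x axis), for any peak, gained peaks, peaks within 1 kb of the start and peaks in the 2 kb past the end. Filled bars are translation factor genes (41, or 32 with a known strand, with 95% Wilson intervals) and pale bars all protein-coding genes, and each filled bar stands above the pale bar beside it.

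The 41 genes held 91 siREXO4, 192 siRNaseH1 and 38 siCtrl peaks. At equal list length they held 38 siREXO4 and 80 siRNaseH1 peaks, and at a fold of at least 5 they held 43 siREXO4 and 23 siCtrl peaks. There were 2.11 siRNaseH1 peaks per siREXO4 peak at these genes, and 1.78 at all protein-coding genes. Peak height was set against each list's own median. The median fold at translation factor genes was 4.96 in siREXO4, close to the 4.98 of that whole list. In siRNaseH1 it was 6.30, above the list's 5.11, and in siCtrl it was 5.32, above the list's 4.83. In all, 26 siREXO4 peaks (28.6%), 89 siRNaseH1 peaks (46.4%) and 17 siCtrl peaks (44.7%) were in the top 25% of their own list by fold.

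Within each knockdown list, the peaks that a siCtrl peak overlapped had the higher median fold. The 25 siREXO4 peaks that a siCtrl peak overlapped had a median fold of 7.05, and the 66 gained ones had 4.78. In siRNaseH1 the 30 overlapped peaks had a median fold of 9.36 and the 162 gained ones 6.05. The same order held over the whole lists, with 6.10 against 4.82 in siREXO4 and 6.88 against 5.09 in siRNaseH1. Gained peaks made up 72.5% of the siREXO4 peaks at these genes (85.5% of the whole list) and 84.4% of the siRNaseH1 peaks (90.3% of the list). Seen from siCtrl, 25 of its 38 peaks at these genes met a siREXO4 peak (65.8%; 41.7% of the whole siCtrl list) and 30 a siRNaseH1 peak (78.9%; 46.3% of the list). Between the knockdowns, a siRNaseH1 peak overlapped 75 of the 91 siREXO4 peaks (82.4%; 54.2% of the list). In the other direction, a siREXO4 peak overlapped 71 of the 192 siRNaseH1 peaks (37%; 32.7% of the list).

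**Figure D2:**
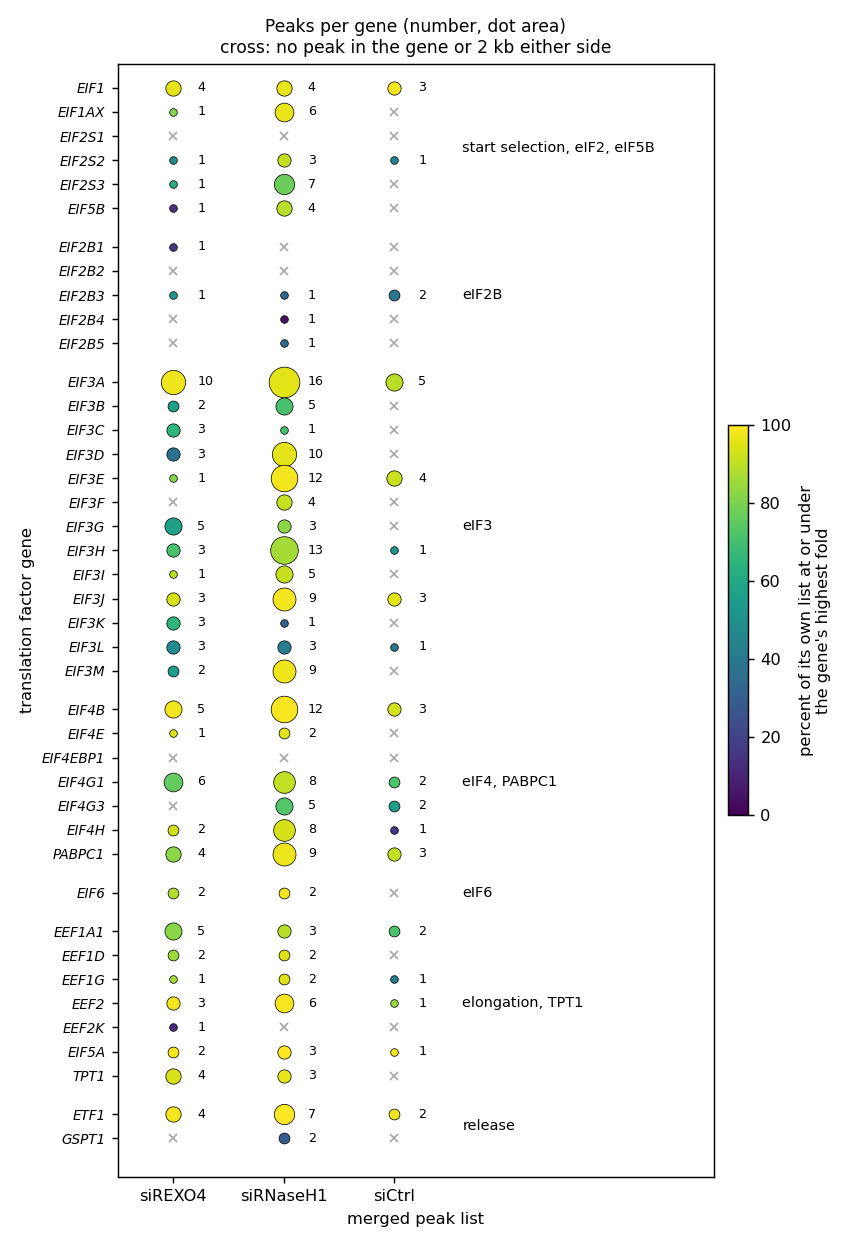
Number of peaks (printed beside each dot, and dot area) at each of the 41 translation factor genes (y axis, grouped by role) in the siREXO4, siRNaseH1 and siCtrl lists (x axis), with crosses for no peak. Colour gives the percent of the same list at or under the gene's highest fold, and EIF3A leads in number with 10 siREXO4, 16 siRNaseH1 and 5 siCtrl peaks.

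Peaks near the start of the gene had a higher median fold than the other peaks of the same list, although tall peaks were also found elsewhere. Strand and start are known for 32 of the 41 genes, from the RefSeq promoter table. A peak within 1 kb of the start was found at 17 of the 32 in siREXO4 (53.1%; 20.7% of all protein-coding genes with a known start), at 19 in siRNaseH1 (59.4%; 21.2%) and at 9 in siCtrl (28.1%; 2.83%). EIF3M and GSPT1 had such a peak in siRNaseH1 and none in siREXO4. The 9 siCtrl genes were EIF1, EIF3J, EIF4B, EIF4G3, EEF1A1, EEF1G, EEF2, EIF5A and ETF1. Of these, EIF4G3 had no peak at this start in either knockdown list. The start used for EIF4G3 lies well inside its annotated span. A siRNaseH1 peak (fold 5.12) had its summit 337 bp from the upper boundary of that span, which was not counted as a start.

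Summits near the start lay mostly inside the gene. In siREXO4, 18 of 20 summits within 1 kb of the start were downstream of it, at a median of 287.5 bp. In siRNaseH1 the count was 18 of 19, at a median of 279 bp, and in siCtrl 9 of 9, at a median of 399 bp. The median fold of these start peaks was 8.88 in siREXO4, 11.6 in siRNaseH1 and 5.98 in siCtrl, and that of the other peaks at the same 32 genes was 4.78 in siREXO4, 6.33 in siRNaseH1 and 5.20 in siCtrl. Of the peaks at these genes in the top 25% of their list by fold, 12 of 19 in siREXO4, 14 of 65 in siRNaseH1 and 5 of 10 in siCtrl had their summit within 1 kb of the start. The DNA was sheared to fragments of about the width of a peak, so a summit places a hybrid only roughly.

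**Figure D3:**
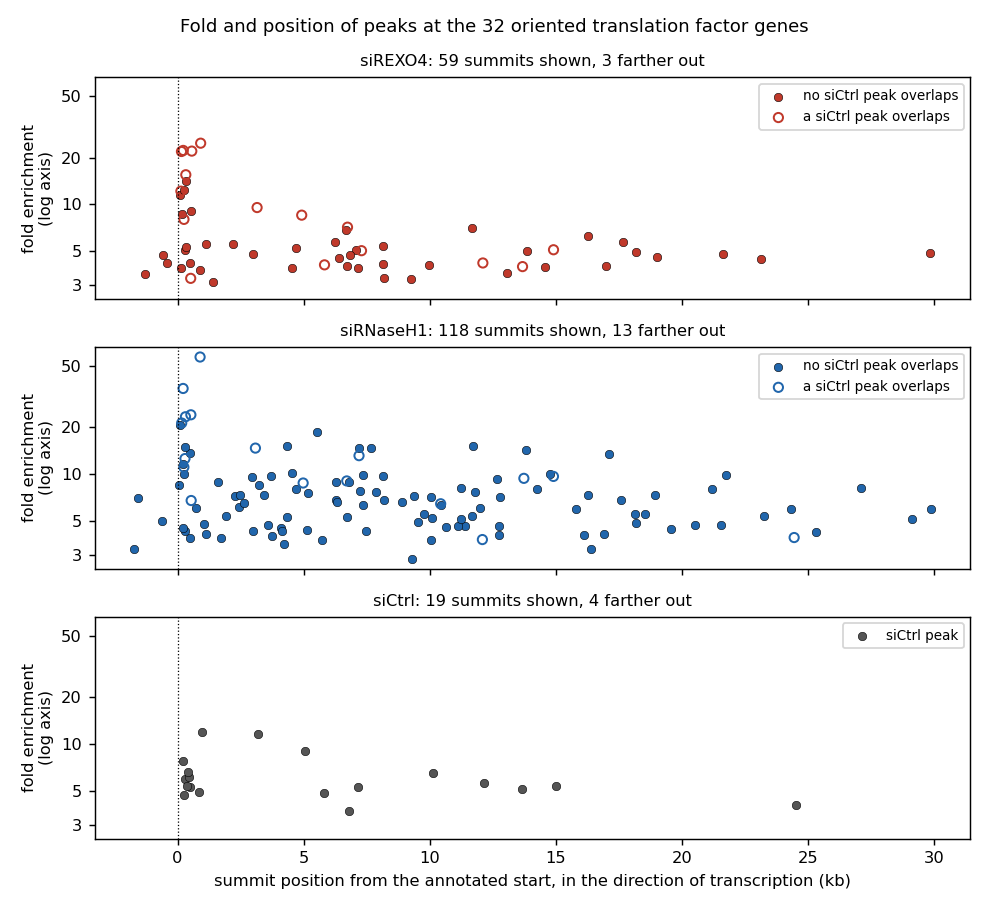
Fold enrichment (y axis, log axis) against summit position from the annotated start in the direction of transcription (x axis, kb) for the 32 translation factor genes with a known strand, with 1 panel each for siREXO4, siRNaseH1 and siCtrl. Filled points of the knockdown panels have no siCtrl peak and open points have one, and the highest siREXO4 and siRNaseH1 points stand within 1 kb of the start.

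To show the DNA just before the start, the 250 bases there are given for 5 genes whose promoters lay inside start peaks and for 2 with no peak in any list. All are written 5′ to 3′ on the gene's strand, from RefSeq on GRCh38.p14, and capitals mark runs of 4 or more G or of 4 or more C, that is the letters GGGG on either strand. The first 3 windows lay wholly inside a siREXO4 and a siRNaseH1 peak. They are those of EEF2 (chr19:3985464-3985713, minus strand), ETF1 (chr5:138543237-138543486, minus strand) and EIF6 (chr20:35284718-35284967, minus strand). Those of EIF4H (chr7:74174106-74174355, plus strand) and EIF3J (chr15:44536897-44537146, plus strand) lay wholly inside a siREXO4 peak, and 151 and 95 bases of them inside a siRNaseH1 peak. The summits of the peaks over these 5 windows lay past the start, so outside the bases printed. EIF2B2 (chr14:75002671-75002920, plus strand) and EIF2S1 (chr14:67360078-67360327, plus strand) are the genes without a peak.
EEF2: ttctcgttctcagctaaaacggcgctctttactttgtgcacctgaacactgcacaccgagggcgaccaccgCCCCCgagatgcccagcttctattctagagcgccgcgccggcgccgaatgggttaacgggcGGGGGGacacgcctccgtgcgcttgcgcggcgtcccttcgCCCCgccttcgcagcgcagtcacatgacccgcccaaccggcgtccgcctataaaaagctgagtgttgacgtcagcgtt
ETF1: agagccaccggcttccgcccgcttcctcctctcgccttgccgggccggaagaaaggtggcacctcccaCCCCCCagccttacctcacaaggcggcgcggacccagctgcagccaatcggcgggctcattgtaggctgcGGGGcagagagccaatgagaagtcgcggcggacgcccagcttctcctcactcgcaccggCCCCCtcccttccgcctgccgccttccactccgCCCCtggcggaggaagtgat
EIF6: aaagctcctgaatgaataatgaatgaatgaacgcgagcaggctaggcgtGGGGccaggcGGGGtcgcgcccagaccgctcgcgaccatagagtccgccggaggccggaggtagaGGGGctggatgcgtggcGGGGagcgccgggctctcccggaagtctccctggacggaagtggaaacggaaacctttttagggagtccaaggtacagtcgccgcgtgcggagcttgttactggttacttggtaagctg
EIF4H: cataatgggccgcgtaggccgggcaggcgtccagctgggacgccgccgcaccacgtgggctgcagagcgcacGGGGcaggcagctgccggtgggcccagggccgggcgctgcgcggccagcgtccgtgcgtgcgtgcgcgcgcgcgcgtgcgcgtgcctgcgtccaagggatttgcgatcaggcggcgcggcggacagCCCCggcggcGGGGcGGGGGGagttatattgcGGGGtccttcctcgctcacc
EIF3J: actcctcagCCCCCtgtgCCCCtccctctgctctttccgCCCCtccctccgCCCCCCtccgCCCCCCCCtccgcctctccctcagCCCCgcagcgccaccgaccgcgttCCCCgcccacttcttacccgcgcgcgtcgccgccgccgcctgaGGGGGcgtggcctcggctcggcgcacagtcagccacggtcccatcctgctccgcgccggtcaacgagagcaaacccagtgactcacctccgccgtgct
EIF2B2: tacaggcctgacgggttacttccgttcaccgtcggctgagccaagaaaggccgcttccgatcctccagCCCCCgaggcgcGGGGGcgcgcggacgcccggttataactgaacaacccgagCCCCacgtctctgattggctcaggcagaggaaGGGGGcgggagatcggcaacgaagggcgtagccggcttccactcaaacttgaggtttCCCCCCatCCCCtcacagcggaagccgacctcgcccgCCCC
EIF2S1: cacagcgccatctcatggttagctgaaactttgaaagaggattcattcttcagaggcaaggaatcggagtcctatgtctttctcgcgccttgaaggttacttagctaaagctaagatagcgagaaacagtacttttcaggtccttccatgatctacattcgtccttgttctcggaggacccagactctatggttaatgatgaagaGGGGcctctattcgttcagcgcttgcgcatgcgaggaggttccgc

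Only ETF1 had bases of this window inside a siCtrl peak, 73 of the 250, among the 32 genes. Windows with and without peaks both held G and C runs, EIF3J with 7 C runs and EIF2B2 with 5. Letters GGGG, searched on both strands, were present in 30 of the 32 windows (93.8%) and in 92.1% of 15810 protein-coding promoters of the same length. Median GC was 62.4% at the 32 genes and 62.4% over all promoters. The 20 genes with a start peak in any list had a median GC of 62.6%, and the 12 with none 62.4%. Over all promoters, by contrast, those with a start peak had 66.8% in siREXO4, 66.8% in siRNaseH1 and 66.0% in siCtrl, and those with none in any list 60.4%. A match is a description of the letters and not a site.

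Peaks past the end of the gene were the next group. A peak in the 2 kb past the end was found at 8 of the 32 genes in siREXO4 (25%; 5.2% of all), at 15 in siRNaseH1 (46.9%; 9.47%) and at 4 in siCtrl (12.5%; 1.43%). At equal list length these were 4 genes in siREXO4 and 8 in siRNaseH1, and at a fold of at least 5 they were 3 in siREXO4 and 1 in siCtrl. The share of all protein-coding genes past the end was not computed at these settings. The full-list shares above are therefore no background for these smaller counts. Of the summits that lay past the end, 4 of 9 in siREXO4 and 5 of 18 in siRNaseH1 belonged to a peak that touched a neighbouring protein-coding gene, against 0 of 4 in siCtrl. Such peaks cannot be given to 1 gene, and they include those of EIF5A with GPS2 and of EIF4G1 with FAM131A.

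Peaks deep inside the gene were most numerous in siRNaseH1, which is also the longest list. At the 32 genes with a known strand, summits inside the gene and over 1 kb past the start were counted. They numbered 32 in siREXO4, at 17 genes, 90 in siRNaseH1, at 24 genes, and 10 in siCtrl, at 7 genes. Their median fold was 4.84 in siREXO4, 6.40 in siRNaseH1 and 5.32 in siCtrl. Genes without a known strand, among them EIF3A, EIF3E, EIF3H and PABPC1, are not in these counts. The share of all protein-coding genes with such a summit was not computed, so these counts have no background. At least 5 peaks lay at 5 of the 41 genes in siREXO4 (12.2%; 1.22% of all protein-coding genes), at 17 in siRNaseH1 (41.5%; 5.52%) and at 1, EIF3A, in siCtrl (2.44%; 0.11%). At equal list length the siRNaseH1 count was 5 genes (0.31% of all), so this count depends on the length of the list. The gene table has no exons, so exonic and intronic summits were not told apart.

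**Figure D4:**
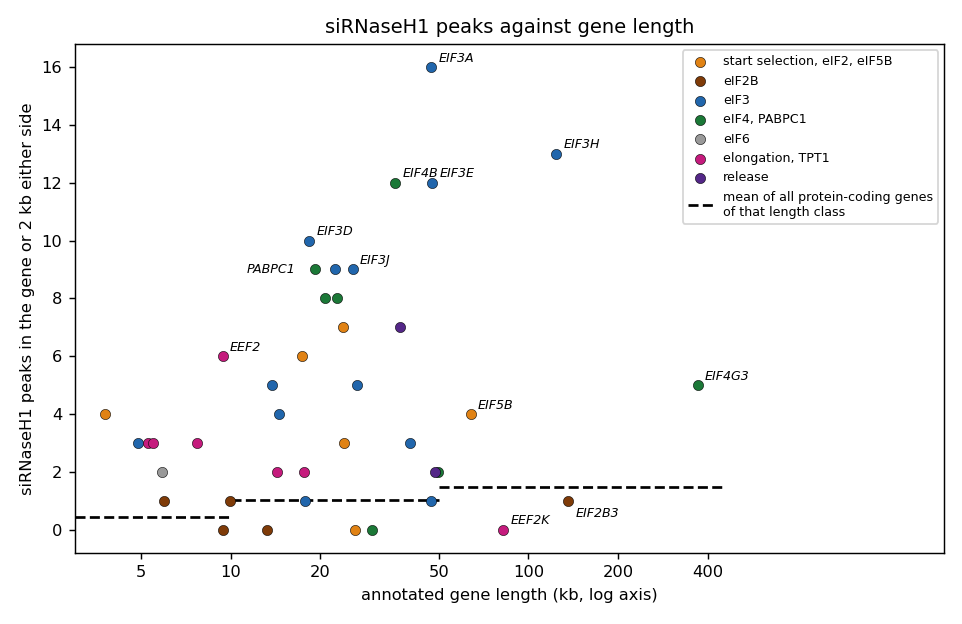
Number of siRNaseH1 peaks (y axis) against annotated gene length (x axis, kb, log axis) for the 41 translation factor genes, coloured by role, with dashed lines for the mean of all protein-coding genes of each length class. The eIF3 genes EIF3A, EIF3H, EIF3E and EIF3D reach 10 to 16 peaks, and the eIF2B genes have 0 or 1.

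Among the factors of start codon selection, EIF1 carried peaks in each list at both ends of the gene. EIF1 keeps the scanning ribosome open until the start codon is found, and it is the shortest of the 41 genes, at 3.78 kb. Its start peak (chr17:41688685-41689727 in siREXO4) had a fold of 15.5 in siREXO4, 11.1 in siRNaseH1 and 5.98 in siCtrl. Its peak near the gene end had a fold of 9.53 in siREXO4, 14.7 in siRNaseH1 and 11.5 in siCtrl. By fold the end peak was thus the taller within siRNaseH1 and siCtrl, and the start peak within siREXO4. By fragments the order in siRNaseH1 was the reverse, with 70 at the start peak and 56 at the end peak. The local background there was 5.4 at the start peak and 2.87 at the end peak. In siREXO4 the start peak had 60 fragments and the end peak 25, and in siCtrl 20 and 31. Further peaks past the EIF1 end numbered 2 in siREXO4, 2 in siRNaseH1 and 1 in siCtrl.

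EIF1AX, whose protein works beside EIF1 in scanning, had 1 siREXO4 peak (fold 7.06), 6 siRNaseH1 peaks (4.67 to 15.3) and no siCtrl peak. None was at the start. The tallest siRNaseH1 peak, with 35 fragments, overlapped the siREXO4 peak and had its summit 11725 bp into the gene. EIF2S3, the GTP-binding subunit of eIF2, showed the same kind of pattern, with 1 siREXO4 peak of 5.40, 7 siRNaseH1 peaks of 4.21 to 6.79 and none in siCtrl. EIF2S2, the beta subunit, had 1 peak in siREXO4 (4.85) that overlapped its 1 siCtrl peak (4.72), and 3 peaks elsewhere in siRNaseH1 (3.51 to 9.97). EIF2S1, the subunit that stress kinases phosphorylate, had none in any list. EIF5B, which joins the ribosomal subunits, had a start peak of 3.88 in siREXO4 and 8.52 in siRNaseH1. It had 3 more siRNaseH1 peaks, up to 9.17, the last of them touching REV1.

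The genes of eIF2B, the complex that reloads eIF2 with GTP, were the poorest in peaks of the groups with more than 2 genes. Its 5 genes held 2 siREXO4, 3 siRNaseH1 and 2 siCtrl peaks, all with folds under 5. Genes with a peak numbered 2 in siREXO4 (33.7% of all protein-coding genes), 3 in siRNaseH1 (39.2%) and 1 in siCtrl (12%). None had a locus gained in both knockdowns, which 20.8% of all protein-coding genes had. A group of 5 genes is too small to be placed above or below those shares. EIF2B1 had 1 siREXO4 peak (3.95), past the gene end and touching DDX55. EIF2B3 had 1 peak in siREXO4 (4.98), 1 in siRNaseH1 (4.59) and 2 in siCtrl (3.95 and 4.57), at 4 separate places. EIF2B4 had 1 siRNaseH1 peak (3.28), upstream and touching SNX17, and EIF2B5 had 1 siRNaseH1 peak (4.59) past its end. EIF2B2 had none. No eIF2B gene had a peak within 1 kb of its start in any list. Over all protein-coding genes with a known start the shares were 20.7% in siREXO4, 21.2% in siRNaseH1 and 2.83% in siCtrl.

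The 13 genes of eIF3, the large scaffold on the small ribosomal subunit, held 39 siREXO4, 91 siRNaseH1 and 14 siCtrl peaks. All 13 held a siRNaseH1 peak (39.2% of all protein-coding genes), 12 a siREXO4 peak (33.7%) and 5 a siCtrl peak (12%). Over the 41 genes the shares were 87.8% in siRNaseH1, 80.5% in siREXO4 and 43.9% in siCtrl. EIF3A, the largest core subunit, held the most peaks of any of the 41 genes. Its 10 siREXO4 peaks had folds of 3.76 to 18.8, its 16 siRNaseH1 peaks 3.32 to 13.7 and its 5 siCtrl peaks 5.06 to 6.57. The siREXO4 peak of 18.8 (chr10:119079948-119080967, 84 fragments) covered the upper end of the gene, where siRNaseH1 had 10.7 and siCtrl none. Within siRNaseH1 the tallest peak by fold was another one (13.7, chr10:119065702-119066489), at which siREXO4 had 9.40 and siCtrl 5.90. By fragments the upper-end peak was the higher in siRNaseH1 too, with 60 over a background of 4.72. The inner peak had 52 over a background of 2.87. Strand is not given for EIF3A here, so the upper end is not called start or end.

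EIF3J, a loosely bound subunit, had the tallest start peak of the eIF3 genes with a known start. Its fold was 12.2 in siREXO4, 21.4 in siRNaseH1 (98.12th percentile) and 7.73 in siCtrl. It had 51 fragments in siREXO4, 78 in siRNaseH1 and 25 in siCtrl. The siREXO4 start peak also touched EIF3J-DT, which is not protein-coding. EIF3J held 3 peaks in siREXO4, 9 in siRNaseH1 and 3 in siCtrl. EIF3I, a WD-repeat subunit, had start peaks of 9.11 in siREXO4 and 10.0 in siRNaseH1, and none in siCtrl. The siRNaseH1 peak there also touched TMEM234. Lower start peaks were found at EIF3B, with 5.09 in siREXO4 and 4.29 in siRNaseH1, and at EIF3K, with 5.28 in siREXO4 and 4.49 in siRNaseH1. Over the whole gene and its flanks, EIF3B held 2 siREXO4 and 5 siRNaseH1 peaks and EIF3K 3 siREXO4 and 1 siRNaseH1 peak, with none in siCtrl.

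Other eIF3 genes had siRNaseH1 peaks spread along the gene. EIF3M, a PCI-domain subunit, held 2 peaks in siREXO4 (3.59 and 5.08) and 9 in siRNaseH1 (4.67 to 18.7), with none in siCtrl. The siRNaseH1 peak of 18.7 (chr11:32589128-32589587, 43 fragments) had no siREXO4 peak over it. EIF3D, a subunit that can itself bind caps, held 3 peaks in siREXO4 (3.14 to 4.56), 10 in siRNaseH1 (4.43 to 14.3) and none in siCtrl. All 3 siREXO4 peaks at EIF3D overlapped a siRNaseH1 peak. EIF3F, with no siREXO4 or siCtrl peak, held 4 in siRNaseH1 (4.59 to 10.0).

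EIF3E and EIF3H, further subunits with genes on chromosome 8, had the next highest siRNaseH1 counts of the group. EIF3E held 1 siREXO4 peak (7.05), 12 siRNaseH1 peaks (3.17 to 22.8) and 4 siCtrl peaks (4.13 to 6.86). Its single siREXO4 peak, the siRNaseH1 peak of 22.8 (68 fragments) and a siCtrl peak of 5.95 all lay at the upper end of the gene. EIF3H held 3 siREXO4 peaks (3.31 to 5.84), 13 siRNaseH1 peaks (3.78 to 8.26) and 1 siCtrl peak (4.83). No knockdown peak overlapped that siCtrl peak. EIF3G, an RNA-binding subunit, held 5 siREXO4 peaks (3.75 to 5.11), 3 siRNaseH1 peaks (4.24 to 7.54) and none in siCtrl. It was, with EIF3C and EIF3K, 1 of 3 eIF3 genes with more peaks in siREXO4 than in siRNaseH1. A single siRNaseH1 peak at EIF3G spanned 2 of its siREXO4 peaks, so peak number also depends on how signal was split into peaks.

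EIF3L and EIF3C complete the group. EIF3L held 3 siREXO4 peaks (3.74 to 4.87), 3 siRNaseH1 peaks (2.97 to 4.85) and 1 siCtrl peak (4.64). EIF3C, which binds EIF3A, held 3 siREXO4 peaks (4.44 to 5.52), 1 siRNaseH1 peak (6.26) and none in siCtrl. Its near-identical nearby copy EIF3CL, which is not among the 41, held 3 siREXO4 peaks, up to 5.38, 1 siRNaseH1 peak of 6.23 and none in siCtrl. How multiply mapped reads were treated is not given in the sources used here, so peaks at these copies cannot be told apart.

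**Figure D5:**
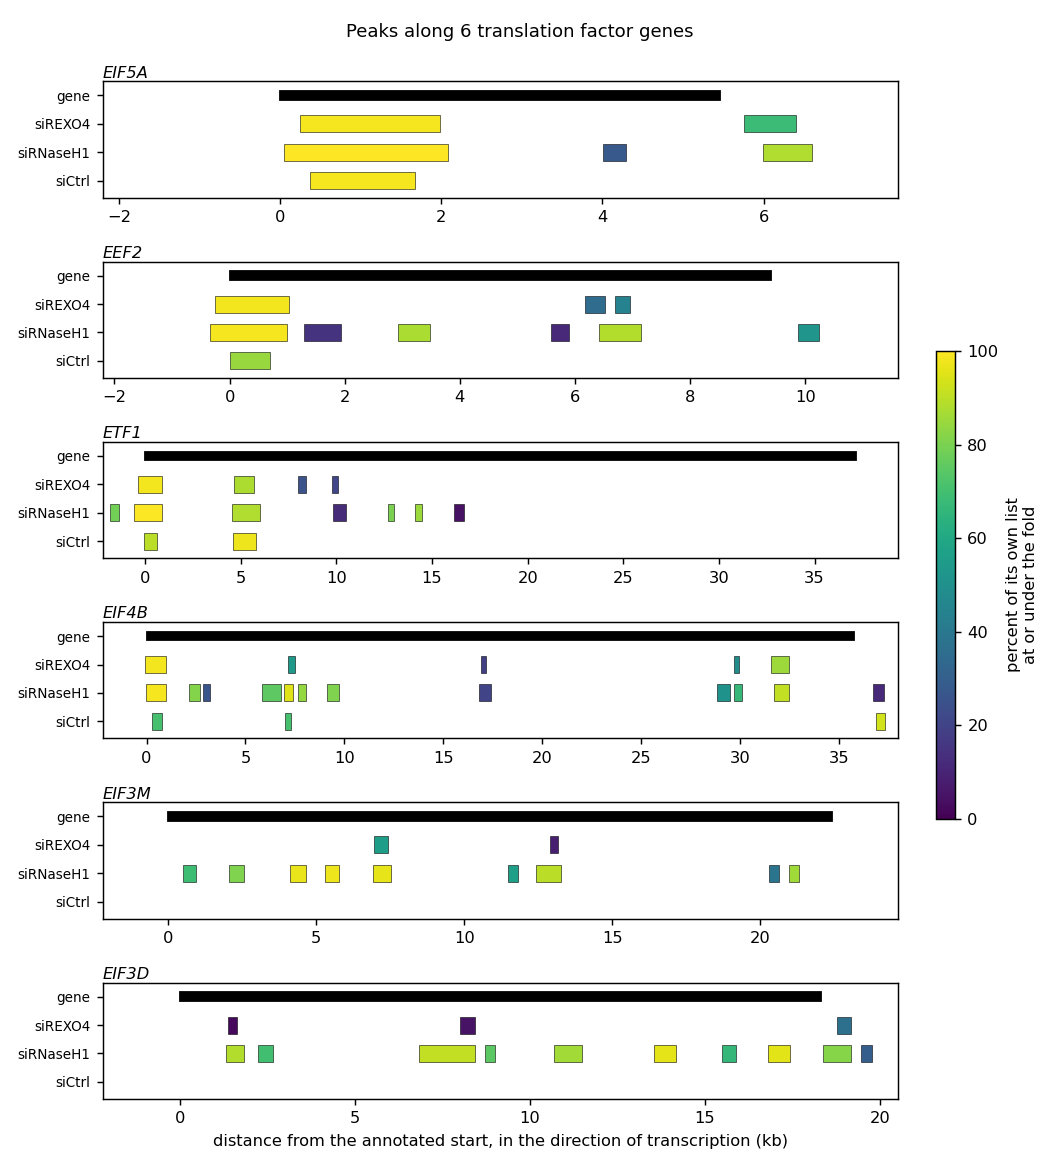
Peaks of siREXO4, siRNaseH1 and siCtrl (boxes, from the top down) along 6 translation factor genes (black bars), by distance from the annotated start in the direction of transcription (x axis, kb), coloured by the percent of the same list at or under the fold. EIF5A, EEF2, ETF1 and EIF4B have a start peak in each list, while EIF3M and EIF3D have no siCtrl peak and 9 and 10 siRNaseH1 peaks.

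The 6 eIF4 genes and PABPC1, whose protein binds the poly(A) tail and contacts eIF4G, held 18 siREXO4, 44 siRNaseH1 and 11 siCtrl peaks. EIF4B, a cofactor of the eIF4A helicase, led them. Its start peak (chr12:53006380-53007431 in siREXO4) had a fold of 22 in siREXO4, 24.1 in siRNaseH1 and 5.30 in siCtrl. It was at or above 98.19% of the siREXO4 list and 98.55% of the siRNaseH1 list. EIF4B held 5 peaks in siREXO4, 12 in siRNaseH1 and 3 in siCtrl. The siCtrl peaks include 1 of 7.06 past the gene end, which touched TNS2-AS1 and was higher in fold than the siCtrl start peak. It had 17 fragments over a background of 1.55, and the siCtrl start peak had 19 over 2.78.

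EIF4E, the cap-binding protein, had a start peak of 14.1 in siREXO4 (38 fragments) and 13.8 in siRNaseH1 (40 fragments), with no siCtrl peak. EIF4H, a further eIF4A cofactor whose promoter window is printed above, had a start peak of 11.4 in siREXO4 and 11.6 in siRNaseH1, with none in siCtrl. Its 1 siCtrl peak, of 4.03, lay past the gene end, and it held 2 peaks in siREXO4 and 8 in siRNaseH1. EIF4G1, the scaffold that ties the cap to the ribosome, had most of its peaks inside the gene. It held 6 in siREXO4 (3.97 to 6.28), 8 in siRNaseH1 (3.56 to 9.83) and 2 in siCtrl (5.12 and 5.36). Both siCtrl peaks overlapped siREXO4 and siRNaseH1 peaks.

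EIF4G3, a paralogue of EIF4G1 and the longest of the 41 genes at 371 kb, held no siREXO4 peak, 5 siRNaseH1 peaks (5.04 to 6.36) and 2 siCtrl peaks (4.66 and 4.88). None of its siRNaseH1 peaks overlapped a siCtrl peak. EIF4EBP1, the repressor that binds eIF4E, had none. PABPC1 held 4 siREXO4 peaks (3.87 to 7.18), 9 siRNaseH1 peaks (4.02 to 17.3) and 3 siCtrl peaks (4.37 to 6.66). Its tallest siRNaseH1 peak (chr8:100716843-100717495, 98 fragments) met a siREXO4 peak of 5.43 and a siCtrl peak of 4.50.

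Among the elongation genes, EIF5A had the tallest peak of the 41 genes in every list. EIF5A is the hypusine-bearing factor that helps ribosomes past difficult peptide bonds. Its peak (chr17:7307243-7308980 in siREXO4, chr17:7307046-7309084 in siRNaseH1, chr17:7307370-7308672 in siCtrl) had a fold of 24.8 in siREXO4, 56.9 in siRNaseH1 and 11.9 in siCtrl. The percentiles were 98.59 in siREXO4, 99.73 in siRNaseH1 and 98.68 in siCtrl, and the fragments 111 in siREXO4, 198 in siRNaseH1 and 33 in siCtrl. Its summit lay 917 bp into the gene in siREXO4, 894 bp in siRNaseH1 and 951 bp in siCtrl, so the peak stood inside the transcribed part and left the promoter window outside. The peaks past its end, of 5.75 in siREXO4 and 8.86 in siRNaseH1, also touched GPS2.

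EEF2, the translocase, had a start peak of 22.3 in siREXO4 (71 fragments), 23.4 in siRNaseH1 (149 fragments) and 6.10 in siCtrl (24 fragments). It covered the whole promoter window in both knockdowns, and the siCtrl peak ended at the start itself. EEF2 held 3 peaks in siREXO4, 6 in siRNaseH1 and 1 in siCtrl. One of the siRNaseH1 peaks, with a fold of 8.56, overlapped the snoRNA gene SNORD37 inside EEF2. The 41 genes contain 7 annotated snoRNA or scaRNA genes, and peaks touched 0 of them in siREXO4, 1 in siRNaseH1 and 0 in siCtrl. EEF2K, the kinase that inhibits eEF2, had a single peak, of 3.76 in siREXO4, past its end.

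EEF1A1, which carries aminoacyl-tRNA to the ribosome, held more peaks in siREXO4 (5, 3.33 to 7.12) than in siRNaseH1 (3, 6.76 to 9.04), and 2 in siCtrl (3.71 and 5.33). Its tallest peak lay past the gene end in both knockdowns, at 7.12 in siREXO4 and 9.04 in siRNaseH1, where siCtrl had 3.71. EEF1G, a subunit of the exchange complex that recharges eEF1A, had a start peak of 8.00 in siREXO4, 12.6 in siRNaseH1 and 4.67 in siCtrl. EEF1D, a subunit with exchange activity, had a peak at the upper end of the gene of 7.89 in siREXO4 and 12.7 in siRNaseH1, with none in siCtrl. TPT1, an abundant growth-related protein that binds eEF1A, had a start peak of 12.4 in siREXO4 and 14.9 in siRNaseH1, the latter also touching TPT1-AS1. Its 4 siREXO4 and 3 siRNaseH1 peaks were all gained, since it held no siCtrl peak. EEF1A1 and TPT1 have many processed pseudogenes, so reads from these copies may have been placed at either.

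The elongation genes with TPT1 held nearly equal numbers in the knockdowns, 18 siREXO4 and 19 siRNaseH1 peaks, and 5 in siCtrl. For eIF3 these numbers were 39 siREXO4 and 91 siRNaseH1 peaks, as given above. The elongation genes are shorter, with a median of 9.41 kb and 25.7 kb for eIF3. All 10 translation factor genes under 10 kb, of whatever role, held 25 siREXO4 and 26 siRNaseH1 peaks, and the 26 of 10 to 50 kb held 60 siREXO4 and 143 siRNaseH1 peaks. Over all protein-coding genes the siRNaseH1 number was 1.34 times the siREXO4 number under 10 kb and 1.80 times from 10 to 50 kb. The part of length in the difference between roles was not tested.

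EIF6, which keeps the large ribosomal subunit from joining too early, had a start peak of 8.65 in siREXO4 (33 fragments) and 20.7 in siRNaseH1 (79 fragments), with none in siCtrl. Its other peak in each knockdown, 6.88 in siREXO4 and 5.26 in siRNaseH1, lay past the end and touched MMP24OS.

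The release factor genes differed from each other. ETF1, encoding eRF1, which reads the stop codon, had a start peak of 21.9 in siREXO4 (98 fragments), 35.7 in siRNaseH1 (150 fragments) and 6.56 in siCtrl (23 fragments). A peak with its summit 4923 bp into the gene in siREXO4, 4980 bp in siRNaseH1 and 5044 bp in siCtrl had a fold of 8.52 in siREXO4, 8.76 in siRNaseH1 and 9.02 in siCtrl. Within siCtrl this inner peak was the taller of the pair, and within each knockdown list the start peak was. ETF1 held 4 peaks in siREXO4, 7 in siRNaseH1 and 2 in siCtrl. GSPT1, encoding the GTPase eRF3 that works with eRF1, held no siREXO4 peak, 2 siRNaseH1 peaks (4.11 and 4.35) and none in siCtrl.

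TOP mRNAs start with a pyrimidine tract and are translated under the control of growth signals, and 10 of the 41 genes were taken as encoding them, namely EEF1A1, EEF1D, EEF1G, EEF2, EIF3E, EIF3F, EIF3H, EIF4B, PABPC1 and TPT1. Of these 10, 9 held a siREXO4 peak, 10 a siRNaseH1 peak and 7 a siCtrl peak. Of the other 31, 24 held a siREXO4 peak, 26 a siRNaseH1 peak and 11 a siCtrl peak. Over all protein-coding genes the shares were 33.7% in siREXO4, 39.2% in siRNaseH1 and 12% in siCtrl. Peaks per gene averaged 2.8 in siREXO4, 6.6 in siRNaseH1 and 1.5 in siCtrl at the TOP genes, and 2.03 in siREXO4, 4.06 in siRNaseH1 and 0.742 in siCtrl at the others. With so few genes the difference is given as counts only.

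Related genes outside the 41 were counted in the same way. Of 25 other cytosolic factors, 13 held a siREXO4 peak (33.7% of all protein-coding genes), 19 a siRNaseH1 peak (39.2%) and 8 a siCtrl peak (12%). The tallest were at EIF4A1, the cap-complex helicase gene, with 67.1 in siREXO4, 210.5 in siRNaseH1 and 31.4 in siCtrl, above EIF5A in each list. EIF2A reached 21.4 and EIF4G2 16.4 in siRNaseH1. Of 18 regulators of translation, 14 held a siREXO4 peak, 16 a siRNaseH1 peak and 8 a siCtrl peak, beside the same shares over all protein-coding genes. PPP1R15A, the stress-induced phosphatase subunit that reverses eIF2 phosphorylation, had 22.9 in siREXO4, 21.1 in siRNaseH1 and 10.3 in siCtrl. LARP1, a binder of TOP mRNAs, had 18.7 in siREXO4, 14.9 in siRNaseH1 and 4.39 in siCtrl, and EIF2AK2, the double-stranded RNA kinase, had 12.1 in siREXO4 and 13.8 in siRNaseH1.

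Of 10 mitochondrial translation factors, which serve a separate ribosome, 3 held a siREXO4 peak (33.7% of all protein-coding genes), 7 a siRNaseH1 peak (39.2%) and 0 a siCtrl peak (12%). The siREXO4 count was thus near the share over all protein-coding genes. For a group of this size the siRNaseH1 and siCtrl counts are given as counts only. Their highest siRNaseH1 folds were 9.46 at MTRF1L, 6.94 at TUFM and 5.94 at GFM2. No peak in any list was found at 5 of the 25 other cytosolic factors, 2 of the 18 regulators and 2 of the 10 mitochondrial factors. Of all protein-coding genes, 53.3% held none.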

How the data were processed

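The data are 3 MACS2-style peak lists, 1 per transfection. Per the labels, the authors merged the 3 S9.6 IP libraries of a group before the call. The build was hg38, per the submitters' processing notes, which list MACS2 2.1.0.20150731, deepTools 3.5.1, HISAT2 2.2.1, SAMtools 1.17, Trim Galore 0.6.10 and Cufflinks with no role or option. Neither the control used for peak calling nor how duplicates and multi-mapped reads were handled is stated there. The authors deposited for each peak its position, a fold enrichment (a ratio) at the summit, a −log10 p-value, a −log10 q-value and a score. The input and IgG libraries were not analysed here, and read depth is unknown.

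Peaks on chromosomes 1 to 22 and X were kept, 12687 of 13157 for siREXO4, 20954 of 21574 for siRNaseH1 and 4458 of 4625 for siCtrl. Gene spans came from RefSeq GRCh38.p14, whose coordinates are those of hg38, and strand and start from its promoter table for 32 of the 41 genes. The planned position classes by boundary were therefore supplemented with classes by start and end. Fragments at a summit were recovered as the whole number that fits both fold, (fragments + 1) / (background + 1), and the Poisson p-value within 0.001 in −log10 p. All peaks with a −log10 p under 300 gave one, and every peak at the 41 genes is within that range. The Wilson intervals (95%) cover counting error only.

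The gene list and the lists of related genes were chosen with earlier results of these data known. All 41 genes are accounted for. Those given in full have, per list, the 8 highest folds, a siCtrl peak, a locus gained in both knockdowns with a fold in the top 25% of either list, the 3 highest peak counts, or no peak in any list. Of related lists, the 3 genes with the highest siRNaseH1 fold are named. EIF3CL is named in addition, as a copy of EIF3C. SciPy 1.17.1, NumPy 2.4.6, pandas 2.3.3 and Matplotlib 3.10.9 were run under Python 3.11.15, and the code was tested on simulated data. Alternatives comprised the gene span alone, a 5 kb flank, assignment by summit, a −log10 q of at least 2, a fold of at least 5, equal list length and an overlap of 50% of the shorter peak for gained peaks, plus a 500 bp start window.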

Additional observations from a re-analysis of the deposited data

How the results depend on the processing

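Of 84 counts recomputed under the alternatives, 71 stayed within 1.5 times the reported count and 13 did not. Those 13 all came from settings that shorten the lists. With a fold of at least 5, 11 translation factor genes held a siCtrl peak and 17 a locus gained in both knockdowns. The same setting left 43 siREXO4 and 23 siCtrl peaks at these genes, and a peak past the end at 3 genes in siREXO4 and 1 in siCtrl. At equal list length, 18 genes held a siREXO4 gained peak and 11 a locus gained in both. There were then 38 siREXO4 and 80 siRNaseH1 peaks, with a peak past the end at 4 genes in siREXO4 and 8 in siRNaseH1, and 5 genes held 5 or more siRNaseH1 peaks. Fewer peaks in the lists is the construction of both settings. For the past-end counts, the share of all protein-coding genes was not computed at either setting. The counts at the start, past the end and of 5 or more peaks were chosen after seeing the data. No paired analysis was possible because each group has 1 merged list without replicate values, so leaving out a replicate could not be done either. Depth limits a gained peak to one that siCtrl did not call, which is not an absence of hybrid in siCtrl cells.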
